A study of Gossypium hirsutum with 24 samples.

Results

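Seedling-preferential transcripts of upland cotton (Gossypium hirsutum) were 55 of 23977 probe sets, 0.229% of those on the Affymetrix Cotton Genome array that are not controls. A probe set is a group of short probes that reads 1 transcript, or several close relatives. Members were chosen from the measured values themselves. With arrays scaled to their hybridisation spike-ins and given a common lowest value (floor), the same rule gave 31, of which 29 were among the 55. Spike-in scaling below means both steps together, and a floor can itself shrink differences from tissues at the lowest values. The median of the 3 seedling arrays had to lie at least 3 log2 units, a factor of 8, above the highest of the other 7 group medians, and the 3 anther medians had to span under 1 log2 unit. The difference between seedling and the other tissues is therefore a description of how the set was made, and no test of it is given.

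The series compared 24 RNA samples, 1 per array and 3 per group. Among the groups were seedlings harvested 5 days after germination and young leaf of plants aged 1 month. The remaining groups were buds of 5, 7 and 8 mm from which the anthers had been removed, and anthers from buds of those sizes. No treatment, mutant or transgene is named for any group. The labels do not say which organs of the seedling were taken or from which plants the replicates came, so the spread between replicates may be technical in part. No group consists of root, stem, hypocotyl or cotyledon alone. Replicates keep the numbers of their labels, for example 5, 6 and 7 in seedling.

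A cotton seedling a few days old is a root, a hypocotyl and a pair of cotyledons, living at first on oil and protein laid down in the seed. Its cells rebuild those reserves into sugars and amino acids, elongate, and begin to take up water and minerals, while the cotyledons green. Leaves are built for photosynthesis, and anthers make the pollen. The activities the members belong to are not given here. Of the 55, 1, probe set Ghi.6528.1.S1_at, has a gene symbol (LOC107898061) in the platform annotation, and that symbol is a locus number without a product name. The other 54 are given by probe set identifier and without a function. For the same reason the labelled tissues were not checked against marker genes.

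Values are log2 expression. The lowest value in the table was 2.16, and 26.6% of all values stood there. Background was set at 2.23, the 95th percentile of 69 reporter and tag control probe sets. Differences from a tissue at that limit are compressed. Because the samples are whole tissues, fewer expressing cells and less RNA per cell cannot be told apart. Between 64.5% and 67.1% of probe sets lay above background on each array. The number of arrays limits the precision.

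The 55 members were separated from the other tissues on every array, not only by their medians. In each of them the lowest seedling array lay above the highest of the other 21 arrays, by 0.27 to 10.71 log2 units with a median of 3.54. Such a separation was found in 6.41% of the 17666 tested probe sets, and here it follows largely from the rule. The margin, the seedling median minus the next highest group median, ran between 3.05 and 10.85 with a median of 4.33, a 20.1-fold difference. It was between 3 and 4 in 24 members, between 4 and 5 in 13, between 5 and 6 in 7, and at least 6 in 11.

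**Figure D1:**
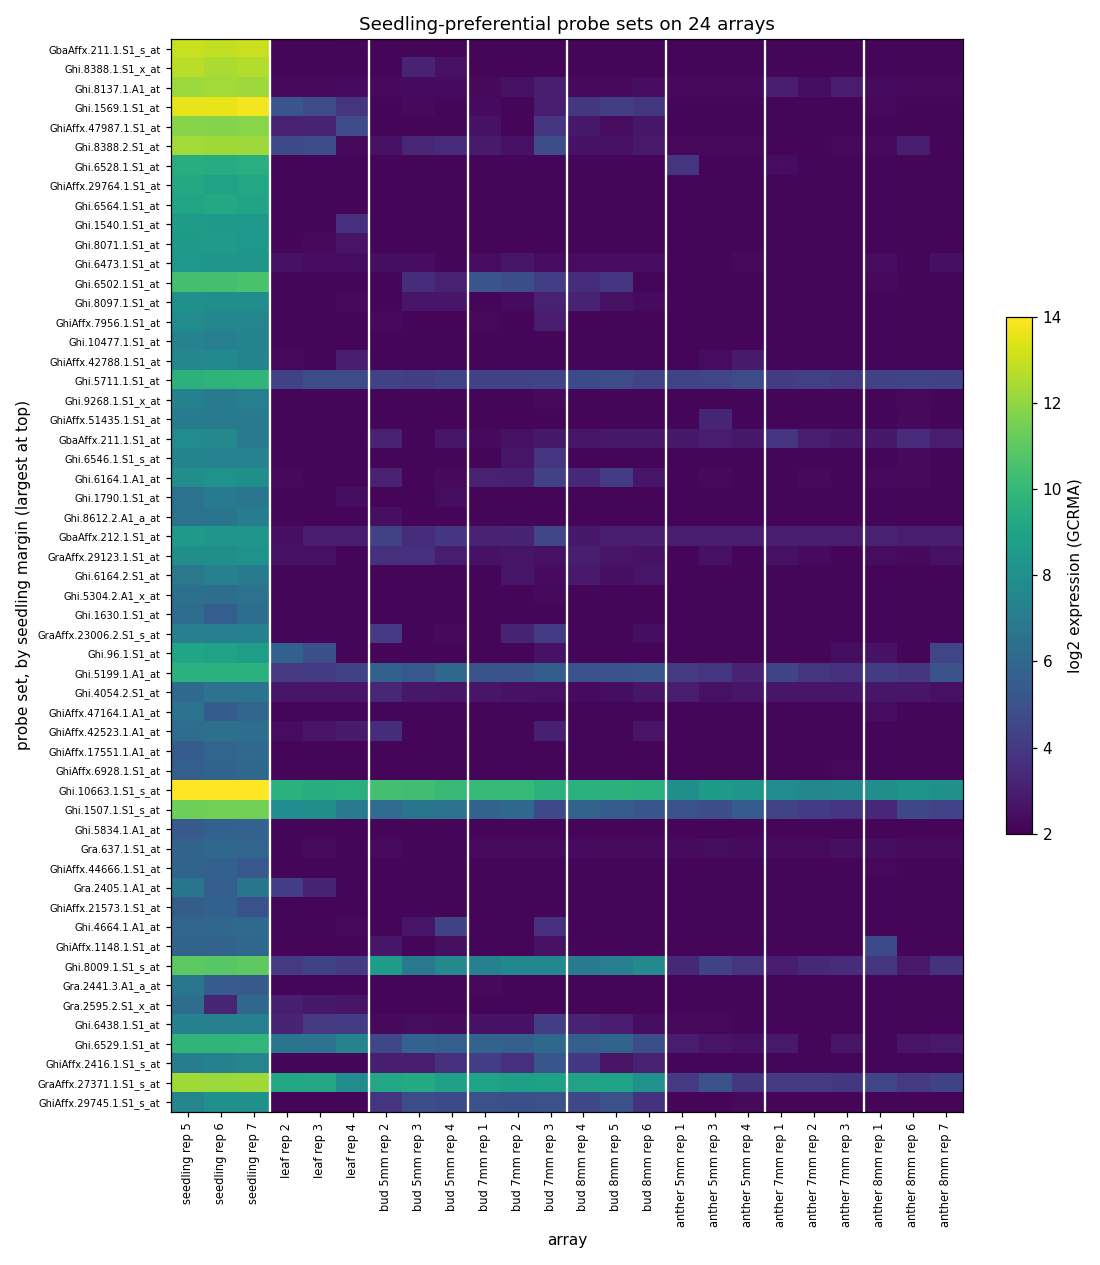
Log2 expression of the 55 seedling-preferential probe sets (rows, largest margin at the top) on the 24 arrays (columns, replicate numbers as labelled; buds are without anthers). The 3 seedling columns are the brightest in every row, while the other 21 columns are mostly at the lower limit, with a few rows such as Ghi.10663.1.S1_s_at and GraAffx.27371.1.S1_s_at bright in several tissues.

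The 10 members with the largest margins were at or near the lower limit in most other tissues. GbaAffx.211.1.S1_s_at stood at 13.01, 12.91 and 13.03 on seedling replicates 5, 6 and 7, against at most 2.21 on the other 21 arrays. All 21 were at or below background, so its seedling level was at least 1720-fold higher. Ghi.8388.1.S1_x_at stood at 12.74, 12.47 and 12.60 in seedling, against 2.16 on every leaf and anther array and at most 3.13, on replicate 3 of 5 mm buds. Both were thus high on all seedling arrays and at or near the lower limit in leaf and anther.

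Ghi.8137.1.A1_at averaged 12.26 ± 0.05 (SD, n = 3) in seedling, against at most 3.00 on any other array. Its lowest value, 2.33, recurred on 11 arrays of other tissues, so the lower limit of this probe set lay above the background used. GhiAffx.29764.1.S1_at stood at 9.26, 8.94 and 9.15 in seedling and at or below background on the other 21 arrays, at least 118-fold lower. Ghi.6564.1.S1_at stood at 9.07, 9.30 and 9.02 in seedling, at least 119-fold above the other 21 arrays, which were also at or below background.

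Ghi.1569.1.S1_at, GhiAffx.47987.1.S1_at and Ghi.8388.2.S1_at had lower but measurable signal in other tissues. Ghi.1569.1.S1_at stood at 13.54, 13.58 and 13.78 in seedling, against 5.19, 4.80 and 3.83 in leaf and at most 4.17 in buds and 2.27 in anthers. GhiAffx.47987.1.S1_at stood at 11.83, 11.79 and 11.87 in seedling, against 3.12, 3.15 and 4.77 in leaf and at most 3.91 in buds. Ghi.8388.2.S1_at stood at 12.33, 12.27 and 12.24 in seedling, against 4.63, 4.85 and 2.28 in leaf, where replicate 4 was the low array.

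The gene with a locus number, LOC107898061 (Ghi.6528.1.S1_at), stood at 9.45, 9.44 and 9.50 in seedling. Leaf and bud arrays were all at 2.16. The 9 anther arrays were at or below background except replicate 1 of 5 mm anthers, at 3.81, and replicate 1 of 7 mm anthers, at 2.41. No other group median was above background, so its margin of 7.29 is limited by the lower end of the scale, and 2 of the 21 other arrays were above background. Ghi.1540.1.S1_at was similar in that 1 array stood out, with 8.57, 8.49 and 8.42 in seedling, against 2.16, 2.18 and 3.60 in leaf and no value above background on any bud or anther array.

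**Figure D2:**
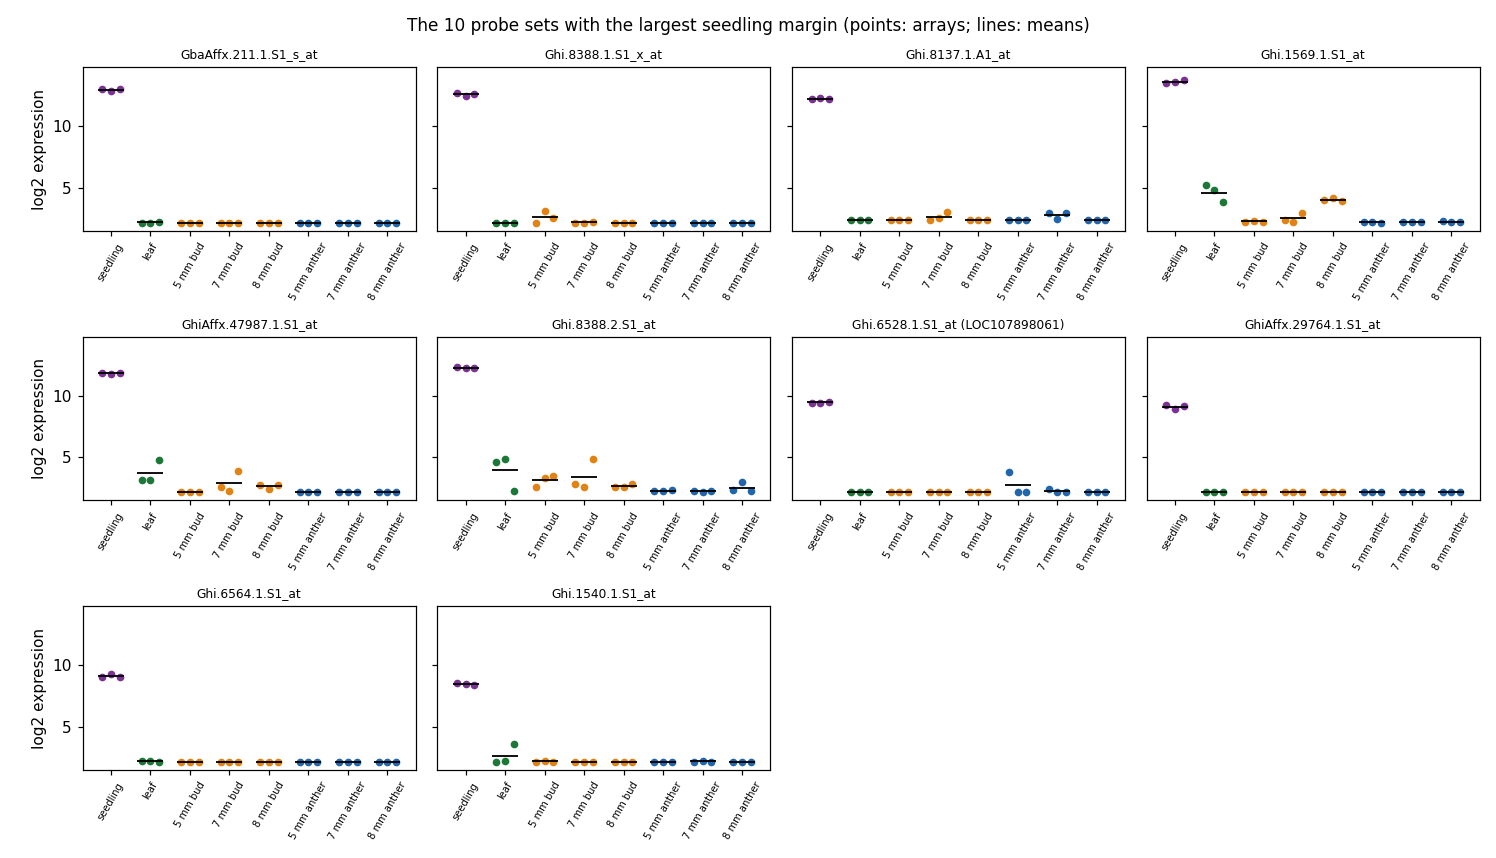
Log2 expression of the 10 members with the largest seedling margin in each of the 8 groups (points are arrays, 3 per group; lines are means; buds are without anthers). The seedling arrays sit between 8.42 and 13.78 and the other arrays at or below 5.19.

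Tissues other than the seedling fell into 2 kinds of pattern. For 19 of the 55 members every other group median was at or below background, and for 8 of these so was each of the 21 arrays. In these 8 the seedling level was at least 9.12-fold to at least 1720-fold higher. For the remaining 36 members the next highest median was a bud group in 20, leaf in 13 and an anther group in 3. Counted by group, the median was above background for 22 members in leaf, for 24, 27 and 24 in buds of 5, 7 and 8 mm, and for 15, 13 and 17 in anthers of 5, 7 and 8 mm. Not every such median need be expression, since some members repeat 1 low value above background across tissues. Leaf and all anther medians were 2.71 in Ghi.4054.2.S1_at and 2.96 in GbaAffx.212.1.S1_at. In Gra.637.1.S1_at the next group, 8 mm buds, stood at 2.34, against 2.33 in all anther groups. These were named after their values were seen.

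Few members were well expressed outside the seedling. The highest other median exceeded 4 in 14 members and 6 in 5. Ghi.10663.1.S1_s_at was measured throughout, at 13.97, 13.99 and 14.01 in seedling, against 9.67, 9.49 and 9.51 in leaf, 9.64 to 10.43 in buds and 7.57 to 8.53 in anthers. GraAffx.27371.1.S1_s_at stood at 12.29, 12.21 and 12.28 in seedling, against 9.18, 9.24 and 7.81 in leaf and 8.08 to 9.36 in buds, and at 3.95 to 4.97 in anthers. Ghi.5711.1.S1_at, named after its values were seen, stood at 9.72, 9.79 and 9.86 in seedling, against 4.02 to 4.80 on all other arrays.

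**Figure D3:**
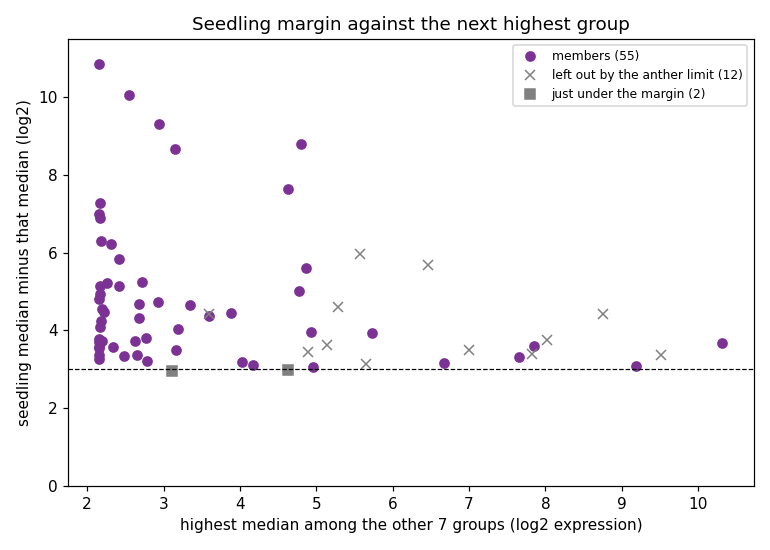
Margin of each probe set (seedling median minus the highest other group median, log2) against that other median (log2). Members (circles) with a margin of at least 6 have other medians under 5; crosses are the 12 probe sets left out by the anther limit and squares the 2 just under the margin of 3 (dashed line).

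Near the threshold the rule separated similar profiles. Just inside, GhiAffx.29745.1.S1_s_at had a margin of 3.05, with a seedling median of 8.01 against 4.96 in 7 mm buds, and GraAffx.27371.1.S1_s_at had 3.09, with 12.28 against 9.18 in leaf. Just outside, Ghi.5748.1.S1_s_at had 2.99, with 7.61 against 4.63 in 8 mm buds, and Ghi.8035.1.S1_at (LOC107888658, a locus number) had 2.96, with 6.07 against 3.11 in 5 mm buds.

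Seedling arrays varied little for most members. The SD over the 3 arrays had a median of 0.12, against 0.09 over the 11513 tested probe sets whose seedling median was at least as high as the lowest of the members, and it exceeded 0.5 in 4 members. Gra.2595.2.S1_x_at had the widest spread, with 6.30 and 6.00 on seedling replicates 5 and 7, against 3.27 on replicate 6, which lay 0.27 above the highest other array (2.99, in leaf). Gra.2405.1.A1_at was also lowest on replicate 6, at 5.58, against 6.67 and 6.68, whereas Gra.2441.3.A1_a_at stood at 6.72 on replicate 5, against 5.43 and 5.37. These 3, named after their values were seen, are the members whose seedling level rests most on which arrays are read. Over the set, replicate 5 was the highest seedling array in 19 members, replicate 6 in 12 and replicate 7 in 24. Over all tested probe sets replicate 5 was the highest in 36.9%, replicate 6 in 27.9% and replicate 7 in 27.8%.

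Of the arrays of other tissues, 7 mm bud replicate 3 carried the most member signal. It had 33 members above background, against 24 on each of the other two 7 mm bud arrays, and was more than 1 log2 unit above both in 8 members. Over all tested probe sets the same array was more than 1 unit above both others in 3.21% and below both in 9.11%. Examples are Ghi.6546.1.S1_s_at, at 3.78 against 2.20 and 2.67 on replicates 1 and 2, and Ghi.6164.1.A1_at, at 4.39 against 3.10 and 3.08. What sets this array apart was not tested. Leaf replicate 4 was above both other leaf arrays by more than 1 unit in 2 members and below both in 3. Without these 2 arrays together, a setting chosen after the data were seen, the rule gave 54 members, all among the 55.

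Members share some sources, since names on this array carry a cluster number. Names ending in s_at or x_at, which can bind several related transcripts, made up 9 and 4 members, or 16.4% and 7.27%, against 38.7% and 6.49% of all probe sets.

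The clusters GbaAffx.211, Ghi.8388 and Ghi.6164 hold 2 members each. Ghi.6164.1.A1_at stood at 7.92, 8.10 and 8.00 in seedling and Ghi.6164.2.S1_at at 6.76, 7.25 and 7.01, and both had buds of 8 mm as the next tissue. The 2 GbaAffx.211 probe sets differed in seedling, with medians of 13.01 for GbaAffx.211.1.S1_s_at and 7.66 for GbaAffx.211.1.S1_at. They also differed outside it. GbaAffx.211.1.S1_at stood at 7.78, 7.66 and 6.93 in seedling and above background on all 9 anther arrays, at 2.75 to 3.79, where GbaAffx.211.1.S1_s_at was at or below background. The 55 members thus stand for 52 clusters and are not 55 independent genes.

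Another 11 probe sets carried the cluster number of a member without being members. Of these, 5 were at background in seedling, and 3 had a margin of at least 1, a margin reached by 2.52% of tested probe sets. Ghi.5304.1.A1_at had a margin of 5.97 and was left out by the anther limit alone. Ghi.8009.2.A1_s_at had 2.78, with a seedling median of 12.17, and its values on the 21 arrays of other tissues correlated with those of the member Ghi.8009.1.S1_s_at at r = 0.98 (probe sets that may share probes, on the same arrays, so a description). The third, Gra.2595.2.A1_s_at, had 1.30.

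The rule sets no difference between leaf, buds without anthers and anthers, and these were tested. It is not blind to the anthers, however. Its limit on their span left out 12 probe sets, and in 5 of these the highest anther median lay above the leaf and bud medians, so the directions of the comparisons with anthers are set in part by the choice of members. A linear model over all 24 arrays (limma, moderated two-sided test, Benjamini-Hochberg over 17666 probe sets) called a difference at an adjusted p under 0.05 and at least 1 log2 unit. Buds and anthers were averaged over the 3 sizes. All 55 members passed the filter on low values, which needs 3 arrays above background, through their seedling arrays. Many therefore sat at the lower limit in both tissues of a comparison and could not be called.

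Between leaf and buds without anthers, 12 members were called, 7 higher and 5 lower in leaf. This is 21.8% of members, against 31.6% of all tested probe sets, of which 15.6% were higher and 15.9% lower in leaf. The median difference was -0.00 over members and 0.00 over all. Of the 55, 31 had at least 3 of these 12 arrays above background, and 11 of those were called (35.5%), against 34.6% of all probe sets filtered in that way. With spike-in scaling, 2 members were higher and 6 lower in leaf, 14.5% of members, against 38.5% of all tested probe sets. Of all tested probe sets 1429 were then higher and 5381 lower in leaf, and their median difference was -0.46. Spike-ins averaged 9.80 ± 0.28 (SD, n = 3) in seedling, 9.46 ± 0.42 in leaf, 8.84 ± 0.32, 8.64 ± 0.29 and 8.74 ± 0.28 in buds of 5, 7 and 8 mm, and 9.29 ± 0.30, 9.54 ± 0.43 and 9.91 ± 0.46 in the matching anthers.

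The members lower in leaf than in buds were led by Ghi.8009.1.S1_s_at. It stood at 3.98, 4.36 and 4.14 in leaf, against 6.83 to 8.58 (median 7.54) in the 9 bud arrays, with no overlap, a difference of -3.30 (SE 0.29, adjusted p = 1e-08, limma). GhiAffx.29745.1.S1_s_at was at or below background on all 3 leaf arrays, against 3.74 to 4.99 in buds, and so at least 5.23-fold lower in leaf (adjusted p = 5.54e-09, limma). Seedling values of the same probe sets were 10.97, 10.90 and 11.05 for the first and 7.46, 8.01 and 8.01 for the second, and anther arrays ranged between 2.82 and 4.37 for the first and between 2.16 and 2.29 for the second.

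Ghi.6502.1.S1_at and GhiAffx.2416.1.S1_s_at were likewise not above background on any leaf array. The first was at least 2.65-fold lower in leaf than in buds and the second at least 2.55-fold (adjusted p = 0.000134 and 0.000106, limma). Bud arrays ranged between 2.20 and 5.14 for Ghi.6502.1.S1_at, with 2 of the 9 at or below background, and between 2.61 and 5.20 for GhiAffx.2416.1.S1_s_at. Ghi.5199.1.A1_at stood at 3.99, 4.04 and 4.30 in leaf, against 5.00 to 6.03 in buds, with no overlap and a difference of -1.22 (SE 0.23, adjusted p = 0.000134, limma).

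Among the members higher in leaf than in buds the largest difference was 2.07, in Ghi.96.1.S1_at, against -3.30 among those lower in leaf. Ghi.1507.1.S1_s_at stood at 7.85, 7.95 and 6.92 in leaf, against 4.69 to 6.66 (median 5.82) in buds, a difference of 1.74 (SE 0.29, adjusted p = 3.73e-05, limma). Ghi.1569.1.S1_at stood at 5.19, 4.80 and 3.83 in leaf, against 2.22 to 4.17 in buds, a difference of 1.67 (SE 0.19, adjusted p = 2.97e-07, limma), and its lowest leaf array overlapped the buds of 8 mm. Ghi.6529.1.S1_at stood at 6.68, 6.59 and 7.36 in leaf, against 4.62 to 6.02 in buds, a difference of 1.34 (SE 0.24, adjusted p = 8.63e-05, limma). With spike-in scaling 5 of the 7 fell under the minimum: Ghi.1569.1.S1_at came to 0.83, Ghi.6529.1.S1_at to 0.62, GhiAffx.47987.1.S1_at to 0.38, Gra.2405.1.A1_at to 0.33 and Ghi.6438.1.S1_at to 0.29.

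In 4 of these 7 a leaf array decided the size or the call. Ghi.96.1.S1_at stood at 5.75, 4.93 and 2.16 in leaf, against 2.16 to 2.57 in buds, a difference of 2.07 (adjusted p = 0.00173, limma) that was 1.34 without leaf replicate 2 and 3.13 without leaf replicate 4. GhiAffx.47987.1.S1_at differed by 1.12 (adjusted p = 0.00315, limma) and lost its call without leaf replicate 4, at 0.58. Gra.2405.1.A1_at stood at 4.20, 3.17 and 2.23 in leaf and at 2.16 on every bud and anther array, and was at least 1.95-fold higher in leaf than in buds (adjusted p = 0.00232, limma). It lost the call without leaf replicate 2, at 0.54, with the floor at background, at 0.96, and with quantile normalization, at 0.97. Ghi.6438.1.S1_at differed by 1.003 and lost its call without any of 6 arrays, leaf replicates 3 and 4 and bud replicates 2 of 5 mm, 1 and 2 of 7 mm and 6 of 8 mm, at 0.82 to 0.99. It also lost the call with quantile normalization, at 0.92, and with the replicate number as a block, at 0.90. The model uses 1 spread per probe set over all 8 groups, and groups at the lower limit add almost none. Leaf SDs were 0.98 for Gra.2405.1.A1_at and 1.88 for Ghi.96.1.S1_at, against model SEs of 0.26 and 0.51. The p-values of such members, here and against anthers, are therefore likely too small.

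Between leaf and anthers, 10 members were called and all 10 were higher in leaf. This is 18.2% of members, against 36.9% of all tested probe sets, of which 17.8% were higher and 19.1% lower in leaf. With spike-in scaling it was 7, all higher in leaf (12.7% of members, against 33.1% of all tested probe sets, 3053 of them higher and 2791 lower). Of the 55, 23 had at least 3 of these arrays above background, and 9 of those were called (39.1%), against 38.9% of all probe sets filtered in that way. With the 12 probe sets that the anther limit left out, the calls were 13 higher and 5 lower in leaf. The median difference was 0.01 over members and -0.10 over all. GraAffx.27371.1.S1_s_at stood at 9.18, 9.24 and 7.81 in leaf, against 3.95 to 4.97 (median 3.97) on the 9 anther arrays, a difference of 4.57 (SE 0.26, adjusted p = 1.74e-11, limma). Ghi.6529.1.S1_at stood at 6.68, 6.59 and 7.36 in leaf, against 2.16 to 2.89 in anthers, a difference of 4.28 (SE 0.24, adjusted p = 9.88e-12, limma). In both, leaf and anther arrays were far apart.

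Ghi.1507.1.S1_s_at differed by 3.14 between leaf and anthers, which ranged between 3.31 and 5.47 in anthers, and Ghi.1569.1.S1_at by 2.39 (adjusted p = 1.49e-08 and 1.55e-09, limma). Ghi.10663.1.S1_s_at differed by 1.54 (SE 0.11, adjusted p = 3.48e-10, limma) at 9.67, 9.49 and 9.51 in leaf, against 7.57 to 8.53 in anthers. GhiAffx.47987.1.S1_at was not above background on any anther array and at least 2.72-fold higher in leaf (adjusted p = 0.000169, limma), but fell under the minimum difference without leaf replicate 4, at 0.98. Ghi.96.1.S1_at differed by 1.78 (adjusted p = 0.00492, limma). It lost the call without leaf replicate 2, at 1.04, and differed by 2.84 without leaf replicate 4. Ghi.8388.2.S1_at differed by 1.60 (adjusted p = 0.004, limma), lost the call without leaf replicate 3, at 1.13, and differed by 2.42 without leaf replicate 4. The other two were Ghi.6438.1.S1_at, with 1.57, and Gra.2405.1.A1_at, at least 1.95-fold higher in leaf and without a call when leaf replicate 2 was left out.

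Between buds without anthers and anthers, 9 members were called and all 9 were higher in buds. This is 16.4% of members, against 23.5% of all tested probe sets, of which 13.7% were higher and 9.83% lower in buds. Of the 55, 31 had at least 3 of these arrays above background, and 9 of those were called (29.0%), against 24.7% of all probe sets filtered in that way. The median difference was 0.02 over members and -0.11 over all, and 0.43 over all with spike-in scaling. That scaling also called 9 members higher in buds (16.4%, against 28.9% of all tested probe sets, 4710 of them higher and 392 lower in buds). None of the 55 was called higher in anthers than in leaf or buds, by the limits above (limma). This absence depends on the anther limit: without it 5 of 67 probe sets were called higher in anthers than in leaf, and 1, Ghi.6472.1.A1_s_at, higher in anthers than in buds. Among the 55, without the minimum difference, 1 member was lower in leaf and 1 lower in buds than in anthers.

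GraAffx.27371.1.S1_s_at led this comparison too, at 8.08 to 9.36 (median 8.90) on the 9 bud arrays, against 3.95 to 4.97 on the 9 anther arrays, a difference of 4.71 (SE 0.19, adjusted p = 1.28e-13, limma). Ghi.8009.1.S1_s_at stood at 6.83 to 8.58 in buds, against 2.82 to 4.37 (median 3.51) in anthers, a difference of 3.93 (SE 0.20, adjusted p = 6.98e-12, limma). Ghi.6529.1.S1_at differed by 2.95 and GhiAffx.29745.1.S1_s_at by 2.45 (adjusted p = 2.99e-11 and 5.22e-11, limma). The bud and anther arrays of these 4 did not overlap, nor did those of Ghi.10663.1.S1_s_at and GhiAffx.2416.1.S1_s_at. No share over all tested probe sets was computed for this, so it is a description. For GhiAffx.29745.1.S1_s_at the anther side was at background on all but 1 array, at 2.29.

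Smaller differences were found for Ghi.10663.1.S1_s_at, with 1.94 (SE 0.08), and for Ghi.6502.1.S1_at, Ghi.1507.1.S1_s_at and Ghi.5199.1.A1_at, with 1.45, 1.39 and 1.33. GhiAffx.2416.1.S1_s_at was not above background on any anther array and at least 2.55-fold higher in buds. Adjusted p-values of these 5 lay between 1.29e-13 and 7.9e-06 (limma). Ghi.5199.1.A1_at came to 0.96 with quantile normalization, just under the minimum. Ghi.6502.1.S1_at and Ghi.1507.1.S1_s_at overlapped between the tissues, at 2.20 to 5.14 and 4.69 to 6.66 in buds, against 2.16 to 2.29 and 3.31 to 5.47 in anthers. Ghi.5199.1.A1_at also overlapped, at 5.00 to 6.03 in buds, against 3.15 to 5.05 in anthers.

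**Figure D4:**
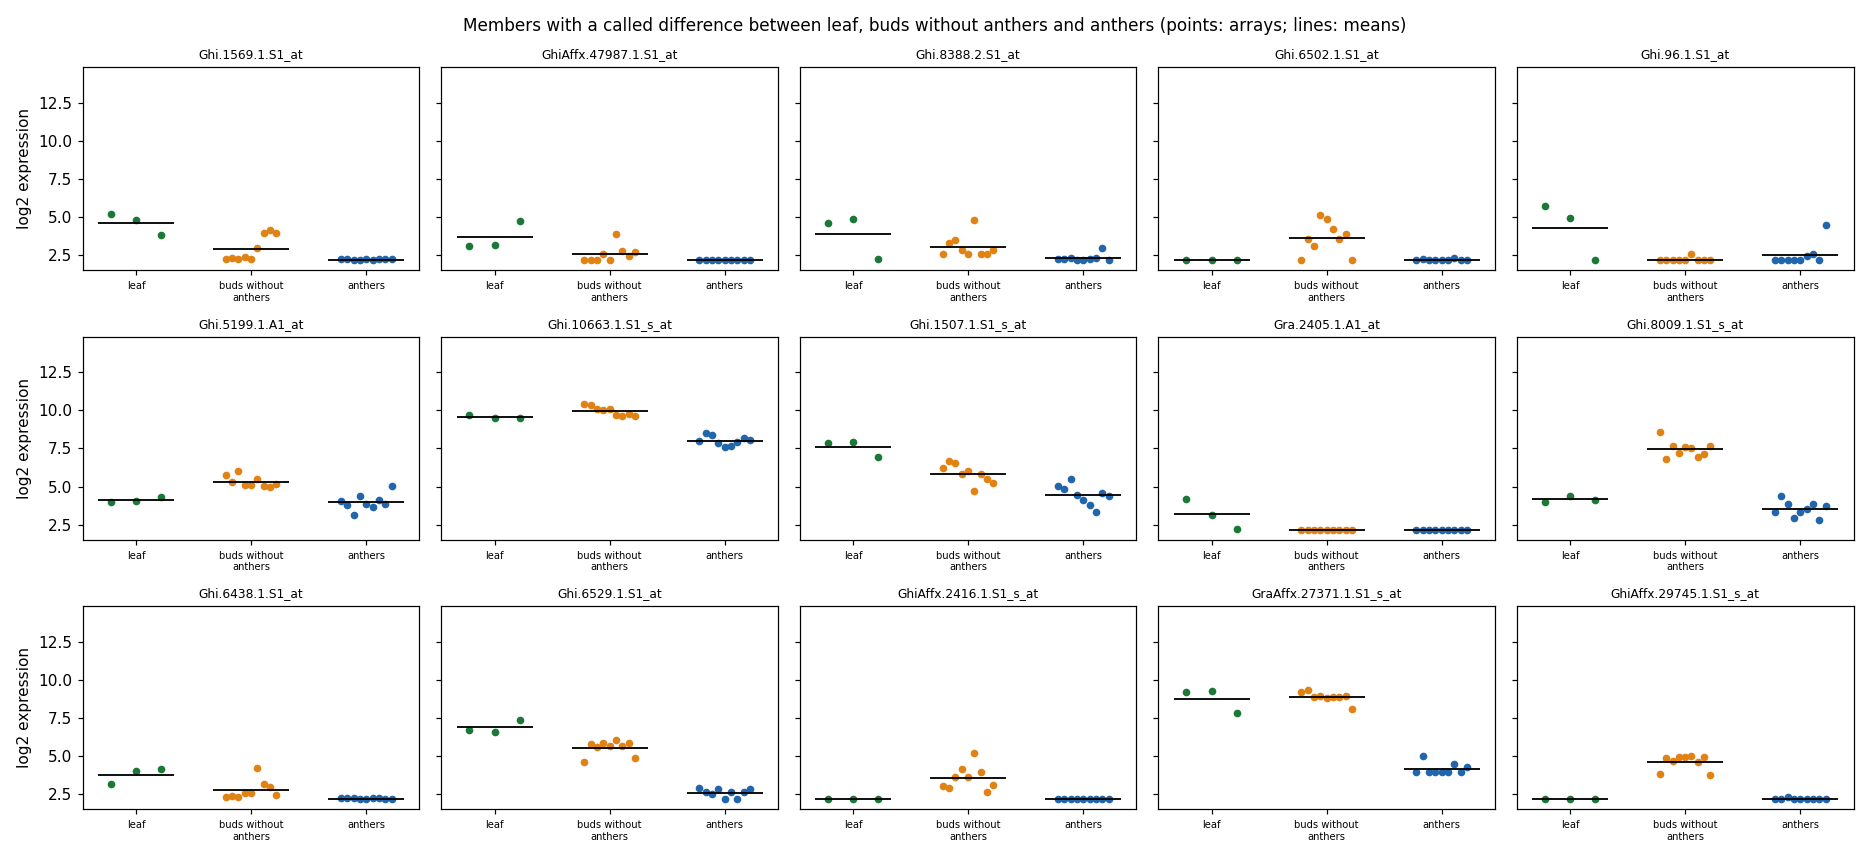
Log2 expression of the 15 members with a called difference among leaf (3 arrays), buds without anthers (9 arrays, sizes 5, 7 and 8 mm left to right) and anthers (9 arrays, same order); points are arrays and lines means. GraAffx.27371.1.S1_s_at is high in leaf and buds and low in anthers, whereas Ghi.8009.1.S1_s_at and GhiAffx.29745.1.S1_s_at are higher in buds than in leaf and anthers.

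Read together with the seedling values, the called members show different orders of tissue. In Ghi.1507.1.S1_s_at the means were 11.43 ± 0.05 (SD, n = 3) in seedling, 7.57 ± 0.57 in leaf, 5.83 ± 0.63 over 9 bud arrays and 4.44 ± 0.65 over 9 anther arrays, and each step among the last 3 was called. In Ghi.6529.1.S1_at they were 9.86 ± 0.04, 6.87 ± 0.42, 5.54 ± 0.47 and 2.59 ± 0.27 in the same order, again with each of those steps called. In Ghi.5199.1.A1_at buds stood at 5.33 ± 0.36, against 4.11 ± 0.17 in leaf and 3.99 ± 0.53 in anthers, and leaf and anthers were not separated (0.11, SE 0.23). In GraAffx.27371.1.S1_s_at leaf, at 8.74 ± 0.81, and buds, at 8.88 ± 0.35, were not separated (-0.14, SE 0.26).

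Bud sizes were compared in steps, and 26 members in the first and 25 in the second had at least 3 of the arrays compared above background. Between buds of 7 and 5 mm 1 member was called, higher at 7 mm, which is 1.82% of members, against 0.962% of all tested probe sets called and 0.73% higher. Between buds of 8 and 7 mm 1 member was called, higher at 8 mm, also 1.82% of members, against 0.249% of all called and 0.0736% higher. With the filter on the arrays compared, the shares were 3.85% of members against 1.22% of all in the first step. In the second they were 4% against 0.322%. Each share of members rests on 1 probe set. Ghi.6502.1.S1_at stood at 2.21, 3.58 and 3.08 in buds of 5 mm, at 5.14, 4.87 and 4.24 in those of 7 mm and at 3.55, 3.89 and 2.20 in those of 8 mm. It was 1.79 higher at 7 than at 5 mm (SE 0.34, adjusted p = 0.0106, limma). At 8 mm it was 1.54 lower than at 7 mm, at an adjusted p of 0.0611 (limma), which is no call. Leaf arrays of this probe set were at 2.16 and anther arrays at 2.16 to 2.29, so its signal outside the seedling lay in the buds.

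Ghi.1569.1.S1_at stood at 2.23, 2.30 and 2.23 in buds of 5 mm, at 2.36, 2.22 and 2.94 in those of 7 mm and at 3.96, 4.17 and 3.96 in those of 8 mm. The step between 7 and 8 mm was 1.52 (SE 0.23, adjusted p = 0.00486, limma), and the arrays of 8 mm did not overlap the others. In anthers from buds of those sizes it stayed between 2.16 and 2.27. Both size calls were lost in a fit of the 6 arrays compared alone, with the same differences of 1.79 and 1.52 (adjusted p = 0.493 and 0.2, limma). They were also lost with the replicate number as a block, with differences of 1.81 and 1.80 (adjusted p = 0.0531 and 0.235, limma).

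The seedling rule gave 55 probe sets, against 30 by the same rule with leaf in place of seedling. Margins had a median of 4.33 and a maximum of 10.85 in the seedling set, against 3.71 and 5.65 in the leaf set. Leaf was above background in 22 of the 55 seedling-preferential probe sets (40.0%), whereas seedling was above background in 22 of the 30 leaf-preferential ones (73.3%). These are descriptions of sets made by mirrored rules on the same arrays, with no test.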

How the data were processed

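Each RNA sample was hybridised to 1 Affymetrix Cotton Genome array. The authors deposited log2 values, computed by GCRMA according to the submitters' processing notes. GCRMA removes background using probe sequence, aligns the arrays to a common distribution and combines the probes of each probe set. No version of it is stated. No scanner files or scan dates were used here, so such batches were not examined.

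All 24 columns were matched to samples by accession and grouped by title. The table held 24132 probe sets, 155 of them controls. Group medians gave the members. Tests used limma 3.58.1 in R 4.3.3, with 8 group means, on the 17666 probe sets above background on at least 3 arrays, and the code was tested on simulated data. Where a tissue was at or below background on all its arrays, the fold is a lower bound, from the mean of the brighter tissue against background. Of the members, 36 held their lowest value on at least 3 arrays. Such groups have no measured spread and lower the spread that the model shares over all groups.

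The platform annotation names 743 probe sets, 697 with 1 symbol and 46 with several. All 697 are in the gene table of assembly Gossypium_hirsutum_v2.1, which holds no product names, so the 7 gene lists, searched by product word, found 0 members, and promoter motifs were not searched. Named were the members with 1 symbol, the 10 with the largest margin, up to 5 called in each direction per comparison and the 2 on each side of the threshold. Added after their values were seen were Ghi.5711.1.S1_at, Ghi.6546.1.S1_s_at, Gra.2405.1.A1_at, Ghi.6438.1.S1_at, the probe sets of shared clusters, those of wide seedling spread and those with a repeated low value. The members, lists and tests were chosen with earlier results of these data known. Alternatives covered scaling, filter, floor, variance prior, array weights, thresholds, kinds of probe set, a block for the replicate number and leaving out each array. Figures were drawn with matplotlib 3.10.9.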

Additional observations from a re-analysis of the deposited data

How the results depend on the processing

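The count of 55 members was 31 with spike-in scaling and its common floor, 29 of them shared. The cause was not tested, and the scaling was not separated from its floor. It was between 42 and 67 under the other settings, and between 54 and 57 with any array left out. No called difference of a member reversed under any alternative that held its probe set. Of 33, 11 kept their call under all of those. The alternatives include the stricter limits given below, under which no difference of less than 2 can be called. The 11 are thus the differences that meet those limits, and their number does not measure how far the other calls depend on the processing. The setting without s_at and x_at probe sets held no member of these kinds. With the adjusted p alone, 19 members were called between leaf and buds (34.5%, against 56.5% of all tested probe sets). Between leaf and anthers it was 14 (25.5%, against 62.3%) and between buds and anthers 20 (36.4%, against 63.2%). Stricter limits were an adjusted p below 0.01 and a difference of 2 or more. They called 3 between leaf and buds (5.45%, against 14.4% of all). Between leaf and anthers they called 4 (7.27%, against 17.3%) and between buds and anthers 4 (7.27%, against 8.63%). For both bud size steps the count was 0, against 0.0962% and 0.034% of all. Without s_at and x_at probe sets, 3 were called between buds and anthers, with 42 members in that fit (7.14%, against 25.2% of all). For the step between 5 and 7 mm the count was 2 with array weights (3.64%, against 2.13% of all). With the adjusted p alone it was also 2 (against 2.12% of all), and in a fit of the arrays compared alone 0. For the step between 7 and 8 mm it was 2 with quantile normalization (3.64%, against 0.26% of all). With array weights it was 3 (5.45%, against 0.747%), and in a fit of the arrays compared alone 0. With 1 array left out, the counts ran between 11 and 13 for leaf and buds, 8 and 10 for leaf and anthers, 9 and 10 for buds and anthers, and 1 and 2 for each size step. Shares of all tested probe sets then ran, in that order, between 30.6% and 31.8%, 35.9% and 37.3%, 23% and 24.2%, 0.843% and 2.28%, and 0.0849% and 0.26%. With the replicate number as a block (replicate block) the counts were 11, 10, 9, 0 and 0. All tested probe sets then had shares of 31.2%, 36.8%, 23.4%, 0.47% and 0.00566%. The labels do not say whether the replicate numbers pair the samples. Of 33 same-numbered pairs of arrays in different groups, 7 had deviations correlated above 0.1. The median r was -0.01 and the highest 0.518, against a median of 0.00 for different numbers. These pairs span all groups, so they cannot decide whether anthers and buds of the same size were paired. Without leaf replicate 4 and 7 mm bud replicate 3 together, added after the data were seen, the counts were 11, 9, 9, 1 and 1. The shares of all tested probe sets were then 32%, 37.6%, 23.8%, 1.43% and 0.204%. Without the anther limit, also added then, the counts were 19, 18, 12, 2 and 1 over 67 probe sets. These are 28.4%, 26.9%, 17.9%, 2.99% and 1.49%, against 31.6%, 36.9%, 23.5%, 0.962% and 0.249% of all tested probe sets. Signal near the lower limit hides differences among tissues other than the seedling.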

Other observations

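A further 12 probe sets met the margin of 3 and were left out because their anther medians spanned 1 log2 unit or more. Ghi.5304.1.A1_at had a seedling median of 11.54, against 2.67 in leaf, 5.58 in 5 mm buds and 5.48 in 8 mm anthers. Ghi.7797.1.S1_s_at had a seedling median of 10.49, against 3.47 in leaf, and medians of 2.53, 2.92 and 7.00 in anthers of 5, 7 and 8 mm. Ghi.6322.1.S1_at had 8.32 in seedling and 2.38, 2.42 and 4.89 in those anthers, while leaf and buds had medians between 2.23 and 2.47. Ghi.6472.1.A1_s_at had 12.87 in seedling and 7.85, 9.49 and 9.51 in anthers, above its 6.57 in leaf. Ghi.10642.1.S1_s_at had 13.18 in seedling, 8.76 in leaf and 4.80, 6.99 and 7.77 in anthers. Ghi.1813.1.S1_at ran the other way in anthers, with 4.35, 3.53 and 2.96 at 5, 7 and 8 mm, against 11.20 in seedling. These were named after their values were seen.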
